A study of Homo sapiens with 10 samples.

Results

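Integrins and laminins are the receptors and ligands through which many cells hold on to the basement membrane. The genes described here are the protein-coding genes with an integrin alpha (ITGA), integrin beta (ITGB) or laminin (LAMA, LAMB, LAMC) symbol that are listed in both count tables, that of HEK293T cells and that of neural progenitor cells (NPCs). There are 33 of them among 19665 genes shared by the tables, 22 integrin genes (16 alpha and 6 beta chains) and 11 laminin genes. Another 4 genes with such symbols stand in only 1 table, ITGAL and ITGB2 in that of HEK293T cells and ITGB6 and LAMB4 in that of NPCs, and are not counted among the 33.

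Gene expression was profiled by RNA sequencing (RNA-seq) of poly(A) mRNA in wild-type (WT) cells and in cells lacking ZNF274, a zinc finger protein with a KRAB domain that binds DNA. The groups were WT HEK293T (3 libraries, S15, S16 and S17), ZNF274 KO HEK293T (3 libraries, S18, S19 and S20), WT NPC (2 libraries, S3 and S5) and ZNF274 KO NPC (2 libraries, S1 and S2). HEK293T is a line from human embryonic kidney that carries the SV40 large T antigen, and the NPCs were grown through embryoid bodies from H1, a human embryonic stem cell (ESC) line. In both lines the whole gene had been removed with CRISPR-Cas9 and a pair of guides flanking it, followed by puromycin selection, after which HEK293T cells were sorted singly and ESC colonies were picked. The series describes the libraries as replicates of independent WT and KO clones, but which library came from which clone is not given, so the p-values measure the spread between libraries.

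Each integrin is a heterodimer of an alpha and a beta chain. The alpha chain largely sets the ligand (collagens, laminins, or proteins with an RGD motif such as fibronectin and vitronectin), and the beta chain reaches the actin cytoskeleton through adaptors such as talin, kindlin and paxillin. ITGB1 encodes the beta chain shared by most alpha chains. Laminins are trimers of an alpha, a beta and a gamma chain that polymerize into the basement membrane, and in the embryonic neural tube they line the outer surface on which neuroepithelial cells rest.

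The total counts on genes were 18621266 to 23035490 in NPC and 21421013 to 32285876 in HEK293T libraries. ZNF274 itself had 445, 423 and 492 counts in WT HEK293T libraries and 491 and 496 in WT NPC libraries, and 0 in each of the 5 KO libraries. Among HEK293T libraries, KO library S18 stood apart from the other KO libraries, with a Pearson correlation of log counts across genes of 0.963 against 0.985 between S19 and S20. The WT NPC libraries, on which every NPC comparison rests, also differed more from each other (0.968) than the KO NPC libraries (0.985). Of 14 neural progenitor markers tested, 11 were lower in KO NPC libraries (8.36% of all genes tested were), and HES5 and SIX3 were at 0 counts there. NES, which encodes the intermediate filament nestin, was not called (log2 fold change 0.25). The markers listed for HEK293T cells summed to 123 to 143 CPM in WT and 118 to 182 CPM in KO libraries of that line, with PAX8 at 0 counts in WT, and to 231 to 429 CPM in WT and 176 to 244 CPM in KO NPC libraries. The NPC sums hold 6 genes and the HEK293T sums 8, since HOXA10 and HOXD8 are listed only in the HEK293T table. The sum of this list thus did not set HEK293T cells apart from NPCs.

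The first comparison asked which integrin and laminin genes changed when ZNF274 was removed from NPCs. Most changes were rises. They were seen in collagen-binding alpha chains (ITGA1 and ITGA11), in the laminin-binding alpha chain ITGA3, in RGD-binding alpha chains (ITGA5, ITGA8 and ITGAV), in ITGA4 and in the laminin chains LAMB1, LAMB3, LAMC1 and LAMC3. ITGB5, ITGB8 and ITGA7 fell, and ITGB1 stayed within 385 to 412 CPM (counts scaled to library size, normalized by the trimmed mean of M values, TMM) in all 4 libraries. A gene was called when its adjusted p in edgeR's quasi-likelihood test (Benjamini-Hochberg over all genes tested) was below 0.05 and its fold change (FC) was above 2. In total 13 of 33 genes were called higher and 3 lower, while 8.45% of all 20577 genes tested were called higher and 8.36% lower (16.8% in either direction). Their median log2 FC was 0.95, beside -0.02 over all genes tested. By chain, 8 of 16 alpha chains were called higher and 1 lower, 1 of 6 beta chains higher and 2 lower, and 4 of 11 laminin chains higher and 0 lower. KO and WT libraries did not overlap in 27 of the 33 genes, 21 higher and 6 lower. Over all genes tested this share was 67.1%.

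**Figure D1:**
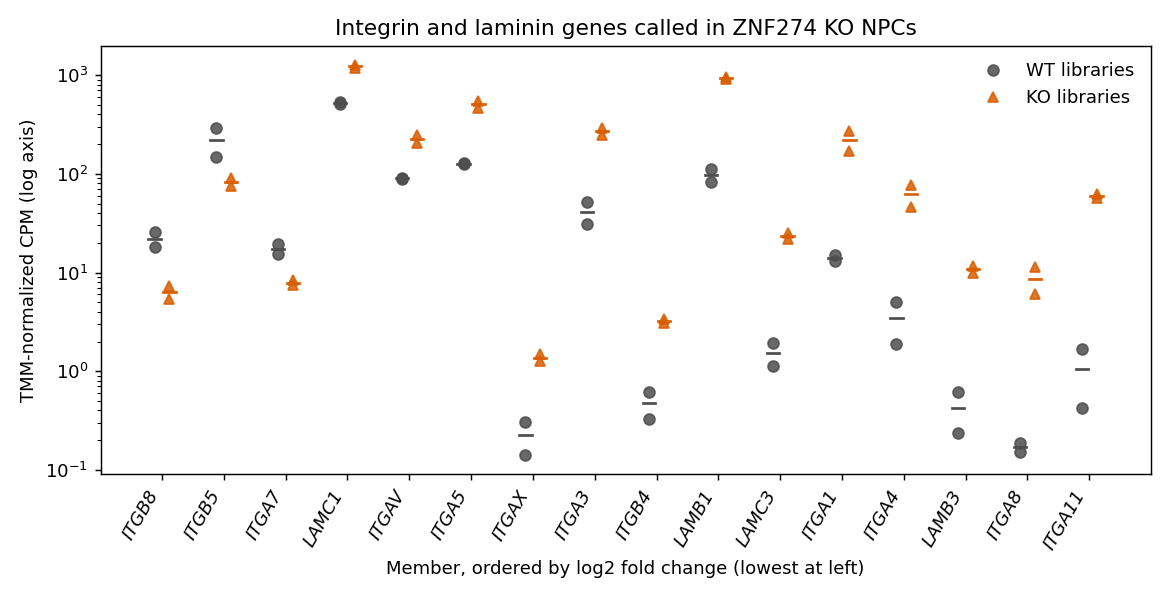
TMM-normalized CPM (log axis) of the 16 integrin and laminin genes called in NPCs, ordered by log2 FC, with 2 WT libraries (circles), 2 ZNF274 KO libraries (triangles) and their means (short lines). LAMB1 went from 83.5 and 112 CPM to 916 and 960 CPM, and WT and KO libraries of each gene drawn lie apart.

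The sequences just upstream of 4 of these genes are shown because they carry the ends of the range. LAMB1 was the called laminin chain with the largest gain in CPM, ITGA5 had the highest level per kilobase among called alpha chains, ITGA11 had the largest FC and ITGB8 the largest fall. Each is the 250 bases before the start of the RefSeq gene (GRCh38.p14), written 5′ to 3′ on the strand of the gene, at chr7:108003162-108003411 (minus strand) for LAMB1, chr12:54419267-54419516 (minus strand) for ITGA5, chr15:68432164-68432413 (minus strand) for ITGA11 and chr7:20330650-20330899 (plus strand) for ITGB8. Capitals mark matches, on either strand, to GGGCGG (SP1), CAGNTG (E-box), GGAATG (TEAD) or TGANTCA (AP-1).
LAMB1: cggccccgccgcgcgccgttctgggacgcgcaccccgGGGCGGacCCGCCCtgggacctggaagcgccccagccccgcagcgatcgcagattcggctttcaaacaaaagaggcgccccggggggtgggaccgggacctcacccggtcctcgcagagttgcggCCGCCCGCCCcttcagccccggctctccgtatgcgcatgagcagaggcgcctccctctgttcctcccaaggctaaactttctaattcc
ITGA5: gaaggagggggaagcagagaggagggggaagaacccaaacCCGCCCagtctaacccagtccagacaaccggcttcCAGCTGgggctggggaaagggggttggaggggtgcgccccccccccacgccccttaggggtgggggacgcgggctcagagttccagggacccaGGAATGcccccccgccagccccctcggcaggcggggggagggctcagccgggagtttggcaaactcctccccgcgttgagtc
ITGA11: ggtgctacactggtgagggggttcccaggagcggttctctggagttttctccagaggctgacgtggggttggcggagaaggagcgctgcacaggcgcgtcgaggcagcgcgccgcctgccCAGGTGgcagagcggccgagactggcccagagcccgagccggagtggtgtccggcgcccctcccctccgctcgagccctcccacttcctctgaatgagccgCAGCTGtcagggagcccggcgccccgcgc
ITGB8: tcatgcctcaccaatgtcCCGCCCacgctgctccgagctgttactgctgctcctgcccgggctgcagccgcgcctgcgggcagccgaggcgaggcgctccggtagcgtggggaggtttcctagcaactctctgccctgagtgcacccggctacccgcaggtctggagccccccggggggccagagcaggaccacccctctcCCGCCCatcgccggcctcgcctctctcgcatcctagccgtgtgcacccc

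RefSeq promoters were found for 24 of the 33 genes and for 11 of the 16 called. The 11 had a median of 70.4% G and C and 19 CpG dinucleotides in the 250 bases, beside 63% and 12 for the 24 genes and 58% and 11 for 35116 promoters in all. GGGCGG or its complement was found in 7 of the 11, in 13 of the 24 and in 42.6% of all promoters. CAGNTG was found in 4 of the 11, in 8 of the 24 and in 42.5% of all. GGAATG was found in 1 of the 11, that of ITGA5, in 4 of the 24 and in 11.9% of all, and TGANTCA in 0 of the 11, in 1 of the 24 (LAMA3) and in 6.57% of all. A match describes the letters only.

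Collagen-binding alpha chains. ITGA11 (ENSG00000137809, hg19 chr15:68588870-68724502), a fibrillar collagen receptor chain typical of fibroblasts, had 9 and 33 counts in WT NPC libraries and 1264 and 1260 in KO libraries. This was 0.426 and 1.69 CPM against 62.4 and 56.8 CPM, a log2 FC of 5.83 (standard error, SE, 0.44, adjusted p = 0.000223, edgeR). The KO libraries lay close together, while the WT libraries differed from each other at these low counts. ITGA1 (chr5:52083750-52255039), which binds collagen IV among others, was at 13.2 and 15.05 CPM in WT and at 268 and 172 CPM in KO libraries (log2 FC 3.96, SE 0.23, adjusted p = 8.52e-05). Its neighbour ITGA2, which starts 30130 bases past its end on the same strand with no other listed protein-coding gene between them, was at 13.0 and 29.3 CPM in WT and 27.5 and 27.3 CPM in KO libraries. ITGA2 was not called (log2 FC 0.38, SE 0.34, adjusted p = 0.454), and its direction rested on WT library S3, being -0.094 without it and 1.07 without S5. ITGA10 had at most 6 counts in any NPC library and was not called.

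Laminin-binding alpha chains. ITGA3 (chr17:48133332-48167845), a receptor chain for laminins with the alpha chain of LAMA5 or LAMA3, was at 30.9 and 51.8 CPM in WT and at 246 and 293 CPM in KO libraries, a log2 FC of 2.70 (SE 0.24, adjusted p = 0.000407). ITGA6 (chr2:173292082-173371187), the laminin receptor chain of neural and other stem cells, lay the other way. It was at 120 and 144 CPM in WT and at 89.5 and 100 CPM in KO libraries, a log2 FC of -0.48 (SE 0.13, adjusted p = 0.0322), which did not reach an FC of 2. ITGA7, best known from muscle, fell from 15.4 and 19.3 CPM to 7.46 and 8.33 CPM (log2 FC -1.14, SE 0.21, adjusted p = 0.00797). The 3 laminin-binding chains thus included 1 called higher and 1 called lower. The call on ITGA7 was lost with all 10 libraries in 1 fit (adjusted p = 0.0921), or without KO library S1 (0.0906) or S2 (0.0525), and its log2 FC was -0.97 without WT library S5.

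RGD-binding alpha chains. ITGA5 (chr12:54789045-54813050), the fibronectin receptor chain, was at 127 and 126 CPM in WT and at 549 and 462 CPM in KO libraries, a log2 FC of 1.997 (SE 0.12, adjusted p = 9.46e-05). ITGAV (chr2:187454737-187545628), the vitronectin receptor chain, rose from 89.0 and 91.3 CPM to 250 and 206 CPM (log2 FC 1.34, SE 0.13, adjusted p = 0.000489). ITGA8 (chr10:15555953-15761921), a nephronectin receptor chain of mesenchyme and smooth muscle, had 4 and 3 counts in WT and 230 and 133 in KO libraries, or 0.189 and 0.154 CPM against 11.4 and 5.99 CPM. Its log2 FC was 5.61 (SE 0.52, adjusted p = 0.000475), and the WT libraries were near the level of 3 counts taken as the floor. ITGA2B, the fibrinogen receptor chain of platelets, had 48 and 27 counts in WT and 5 and 18 in KO libraries, and was not called (log2 FC -1.77, adjusted p = 0.0838), but was with all 10 libraries in 1 fit (-1.75, adjusted p = 0.0366).

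Other alpha chains. ITGA4 (chr2:182321929-182403667), which binds fibronectin and VCAM1 and marks migrating neural crest and blood cells, had 40 and 99 counts in WT and 1573 and 1030 in KO libraries. It went from 1.89 and 5.07 CPM to 77.7 and 46.4 CPM, a log2 FC of 4.16 (SE 0.45, adjusted p = 0.000886). Of its exon bases, 26.4% are shared with CERKL on the opposite strand, and the strand setting of the counting is not given in the sources used here. ITGA9, its relative that binds tenascin, was at 14.9 and 13.1 CPM in WT and 23.9 and 18.4 CPM in KO libraries (log2 FC 0.60, adjusted p = 0.0641, not called). ITGAX, a leukocyte chain, had 3 and 6 counts in WT and 30 and 28 in KO libraries (log2 FC 2.59, SE 0.63, adjusted p = 0.0222), a call lost with all 10 libraries in 1 fit (adjusted p = 0.0517) and without KO library S1 (0.135) or S2 (0.0937). ITGAE was at 20.8 and 16.2 CPM against 24.2 and 26.3 CPM (log2 FC 0.45, adjusted p = 0.111), and ITGAM had at most 8 counts.

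Beta chains. ITGB1 (chr10:33176201-33294720) was at 385 and 403 CPM in WT and at 412 and 387 CPM in KO libraries. Its log2 FC was 0.02 with an SE of 0.10 (adjusted p = 0.91), and the sign turned with library size alone as the scaling (-0.091). The partner shared by ITGA1, ITGA3, ITGA4, ITGA5, ITGA8 and ITGA11 was thus measured at about the same level in all 4 libraries while those alpha chains were called higher. ITGB5 (chr3:124480795-124620265), a partner of ITGAV, fell from 147 and 291 CPM to 74.4 and 90.0 CPM (log2 FC -1.41, SE 0.29, adjusted p = 0.0119). Its WT libraries differed from each other, the log2 FC was -0.85 without WT library S5, and the call was lost without KO library S1 (adjusted p = 0.0853). ITGB8 (chr7:20370325-20455377), the ITGAV partner of radial glia that activates latent TGF-beta, fell from 18.3 and 25.8 CPM to 7.36 and 5.45 CPM (log2 FC -1.78, SE 0.26, adjusted p = 0.00275). So the called changes of these 2 ITGAV partners were falls and that of ITGAV a rise. ITGB4, the ITGA6 partner of hemidesmosomes, had 7 and 12 counts in WT and 68 in each KO library (log2 FC 2.76, SE 0.47, adjusted p = 0.00522). ITGB3 was at 0.563 to 1.56 CPM in the 4 libraries (log2 FC -0.06, adjusted p = 0.958), and ITGB7 had at most 16 counts in a group.

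Laminin alpha chains. LAMA1 (chr18:6941741-7117796), the alpha chain of the embryonic basement membrane, was at 219 and 221 CPM in WT and at 130 and 107 CPM in KO libraries. Its log2 FC was -0.89 (SE 0.13, adjusted p = 0.00241), short of an FC of 2, and it was called with library size alone (-1.004) or without KO library S1 (-1.05). LAMA5, the alpha chain of many adult basement membranes, was at 29.9 and 37.6 CPM in WT and at 47.1 and 82.9 CPM in KO libraries (log2 FC 0.95, SE 0.26, adjusted p = 0.0358, also short of an FC of 2), and past it without WT library S5 (1.11) or KO library S1 (1.30). LAMA4, found around vessels and in mesenchyme, was at 19.3 and 2.56 CPM in WT and at 90.8 and 31.8 CPM in KO libraries (log2 FC 2.48, SE 0.82, adjusted p = 0.0628). The WT libraries were far apart, and the log2 FC was 4.58 without WT library S3 and 1.65 without S5. LAMA4 was called with all 10 libraries in 1 fit (2.49, adjusted p = 0.0481). LAMA2 (7.57 and 9.62 CPM against 14.7 and 9.91 CPM) and LAMA3 (at most 1.43 CPM) were not called.

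Laminin beta and gamma chains. LAMB1 (chr7:107564244-107643658), the beta chain of early embryonic laminins, had 2375 and 1632 counts in WT and 18545 and 21305 in KO libraries. It rose from 112 and 83.5 CPM to 916 and 960 CPM, a log2 FC of 3.26 (SE 0.16, adjusted p = 4.65e-05). LAMB2 (chr3:49158547-49170551), the beta chain of nerve, muscle and kidney laminins, was at 166 and 197 CPM in WT and at 172 and 152 CPM in KO libraries (log2 FC -0.16, SE 0.13, adjusted p = 0.393). LAMC1 (chr1:182992555-183114727), the gamma chain of most laminins, rose from 535 and 512 CPM to 1194 and 1255 CPM (log2 FC 1.23, SE 0.10, adjusted p = 0.000282). LAMB3, an epidermal chain that assembles with LAMA3, had 5 and 12 counts in WT and 202 and 261 in KO libraries (log2 FC 4.67, SE 0.44, adjusted p = 0.000479). LAMC3 had 24 and 38 counts in WT and 514 and 482 in KO libraries, or 1.14 and 1.94 CPM against 25.4 and 21.7 CPM (log2 FC 3.94, SE 0.30, adjusted p = 0.000233).

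The share of each chain in its class was calculated from CPM per kilobase of exon, so that genes of different length could be set side by side. The summed level of alpha chains was 52.7 and 60.4 CPM per kilobase in WT NPC libraries and 166 and 149 in KO libraries. That of beta chains was 50.7 and 74.2 in WT and 40.9 and 41.3 in KO libraries. Laminin alpha chains summed to 17.8 and 17.2 in WT and 19.7 and 15.6 in KO libraries, and beta chains to 30.2 and 33.4 against 76.5 and 76.4. Of these 4 classes, the sums were higher in KO libraries for integrin alpha and laminin beta chains, lower for integrin beta chains, and overlapping for laminin alpha chains.

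The make-up of these classes differed between WT and KO NPC libraries, and the leading laminin beta chain changed. Among integrin alpha chains, ITGA6 held a mean of 35.001% of the level per kilobase in WT and 9.07% in KO libraries, ITGA5 30.5% and 43.4%, ITGA3 7.37% and 17.6%, and ITGA1 1.35% and 7.48% (n = 2 each). With the longest transcript in place of all exons as the length, ITGA5 led in WT too, at 30.6% against 27.3% for ITGA6. ITGB1 held 44.7% of the beta chains in WT and 66.7% in KO libraries, and ITGB5 52.4% and 30.7%. The lead of ITGB5 in WT rested on library S5 (60.2% against 37.3% for ITGB1), since ITGB1 led in S3 (52.2% against 44.6%), and with the longest transcript ITGB1 led in WT at 58.4% against 39.2%. Among laminin alpha chains LAMA1 led in both, with 79.2% and 42.3%. LAMA5 held 11.7% and 15.3% in WT libraries and 16.7% and 37.1% in KO libraries, and LAMA4 9.04% and 1.24% against 38.4% and 17.02%, so the 2 KO libraries differed from each other in both chains. With the longest transcript LAMA4 lay just ahead of LAMA1 in KO library S1 (40.74% against 40.68%). LAMB1 held 16.7% of the beta chains in WT and 66.0% in KO libraries, and LAMB2 83.0% and 30.9%, an exchange of the leading chain that held with the longest transcript (31.3% and 81.8% for LAMB1).

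**Figure D2:**
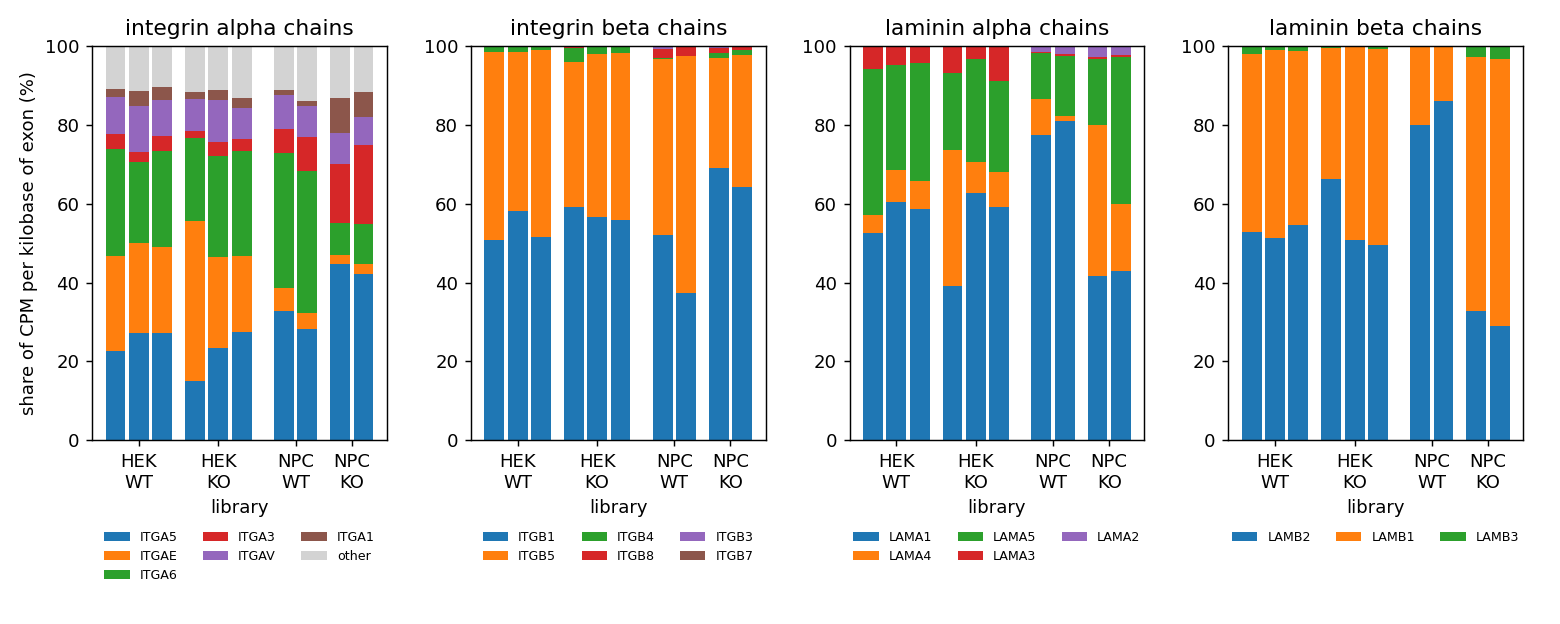
Share (%) of each chain in the summed CPM per kilobase of exon of its class, 1 bar per library, with HEK293T libraries at the left and NPC libraries at the right of each panel and minor alpha chains pooled as other. LAMB1 makes up 66.0% of laminin beta chains in KO NPC libraries and 16.7% in WT, beside 45.7% in WT and 43.9% in KO HEK293T libraries.

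In HEK293T cells, 29 of the 33 genes had enough counts to be tested, and 0 were called, beside 0.489% of the 19018 genes tested there. ITGA11 was at 0 in all 6 libraries, and ITGB7, ITGAM and ITGAX had at most 3 counts in any library. DESeq2 and voom called 0 as well, as did every alternative run. At an unadjusted p below 0.05 there were 7 of 29 genes, 4 higher and 3 lower, beside 7.12% of all genes (4.43% higher and 2.69% lower). The median log2 FC was 0.04 (0.01 over all genes), also with ITGA10, which had 0 counts in KO libraries, set to its bound. KO and WT libraries did not overlap in 6 of the 29 genes, beside 12.4% of all genes tested.

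The 7 genes were low or moderate in level. ITGA2B was at 0.768, 0.895 and 1.12 CPM in WT and at 2.80, 2.06 and 1.79 CPM in KO HEK293T libraries (log2 FC 1.25, SE 0.34, adjusted p = 0.31, edgeR). ITGB4, at 1.03, 0.826 and 0.678 CPM against 3.01, 1.29 and 1.27 CPM (log2 FC 1.12), and ITGA7, at 4.37, 2.44 and 3.29 CPM against 11.5, 3.47 and 5.42 CPM (log2 FC 1.004), were both highest in KO library S18. LAMA4 had 415 counts in S18 and 137 and 115 in the other KO libraries, against 78, 125 and 104 in WT (log2 FC 1.34). ITGA4 had 34, 94 and 22 counts in WT and 8, 20 and 24 in KO libraries (log2 FC -1.44), LAMB3 had a log2 FC of -1.41, and LAMA5 of -0.49. KO library S18, which stood apart across genes, thus held the top value of all 4 genes with a positive log2 FC. Without it the log2 FC was 1.05 for ITGA2B, 0.59 for ITGB4, 0.40 for ITGA7 and 0.29 for LAMA4. ITGAE, a leading alpha chain of this line per kilobase, was also highest in S18, at 27.9, 25.5 and 24.5 CPM in WT and at 66.7, 25.5 and 23.8 CPM in KO libraries (log2 FC 0.57, adjusted p = 0.777).

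Among the other leading receptor chains of HEK293T cells none was called. ITGB1 was at 90.6, 89.8 and 81.0 CPM in WT and at 106, 91.2 and 98.2 CPM in KO libraries (log2 FC 0.18, SE 0.13, adjusted p = 0.829). ITGB5 was at 38.0, 28.0 and 33.1 CPM against 29.3, 29.8 and 33.3 CPM. ITGA6 was at 32.1, 23.2 and 27.6 CPM against 34.9, 28.6 and 33.4 CPM, and ITGA5 at 29.3, 33.9 and 34.5 CPM against 27.6, 28.7 and 38.0 CPM. These receptor chains overlapped between genotypes, with the exception of ITGB1, whose KO values all lay above the WT values.

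The leading laminin chains of HEK293T cells were not called either. LAMC1 was at 235, 302 and 229 CPM in WT and at 231, 235 and 246 CPM in KO libraries (log2 FC -0.11, SE 0.14). LAMB1 was at 74.8, 86.8 and 79.6 CPM against 68.1, 86.1 and 86.4 CPM, a log2 FC of -0.004 with an SE of 0.15, beside 3.26 in NPCs. LAMB2 was at 32.2, 34.3 and 36.6 CPM against 50.5, 33.0 and 31.7 CPM, and LAMA1 at 39.0, 42.4 and 38.9 CPM against 27.2, 44.6 and 38.5 CPM. LAMA5 was at 24.8, 16.9 and 17.9 CPM in WT and at 12.2, 16.8 and 13.4 CPM in KO libraries. LAMC3 was at 15.96, 15.1 and 16.3 CPM against 10.8, 12.7 and 13.1 CPM (log2 FC -0.37, adjusted p = 0.724). Every KO value of LAMA5 and of LAMC3 lay below the WT values, although neither was called.

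**Figure D3:**
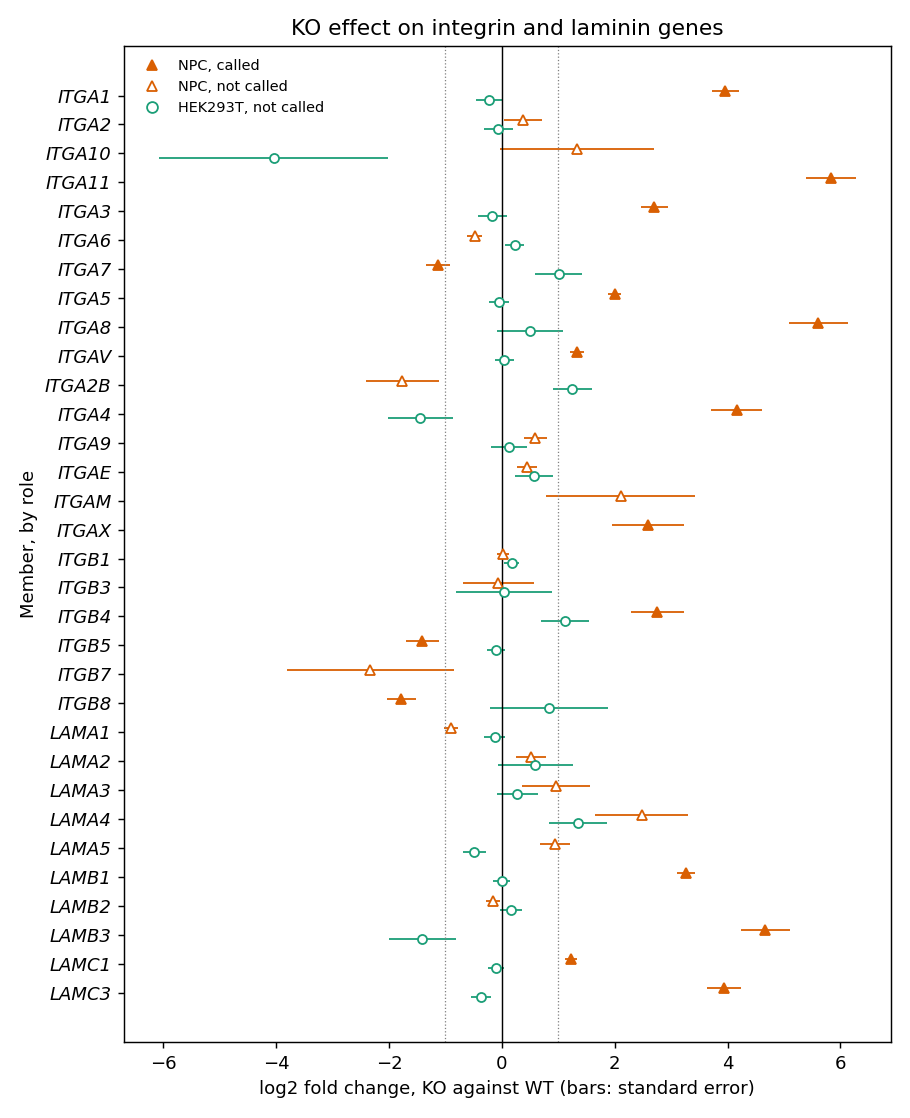
Log2 FC of KO against WT (x axis, bars are standard errors) of 32 genes in NPCs (triangles) and of 28 in HEK293T cells (circles), with filled symbols for called genes and dotted lines at an FC of 2. The 16 filled symbols are all NPC triangles, 13 to the right and 3 to the left, and all circles are open.

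The difference between the KO effects of the 2 cell types was tested itself, as an interaction term over all 10 libraries. The effect was higher in NPCs for 11 of 33 genes and lower for 3, beside 6.01% and 6.22% of 19255 genes tested (12.2% in either direction). The 11 were LAMB3, ITGA4, ITGA8, LAMC3, ITGA1, LAMB1, ITGA3, ITGA5, LAMA5, LAMC1 and ITGAV, and the 3 were ITGA2B, ITGA7 and ITGB5. For LAMB1 the effects differed by 3.28 on the log2 scale (SE 0.23, adjusted p = 7.26e-06, edgeR), for ITGA1 by 4.21 (SE 0.33, adjusted p = 1.35e-05) and for ITGA5 by 2.07 (SE 0.23, adjusted p = 0.000129). For ITGA7 the difference was -2.12 (SE 0.60, adjusted p = 0.0314), and for ITGA2B -3.00 (SE 0.70, adjusted p = 0.0129), both with a positive log2 FC in HEK293T cells and a negative one in NPCs. The calls on ITGA7 and ITGB5 were lost when any 1 of HEK293T libraries S16 and S17 and NPC libraries S1, S2 and S5 (for ITGA7 also S3) was left out, that on ITGA2B without S1 or S3 and that on LAMA5 without S2 or S3. ITGB1 gave -0.14 (SE 0.17, adjusted p = 0.654). No difference could be had for ITGA11, which was at 0 in every HEK293T library. The median difference was 0.59 over the 30 genes left when the 3 genes at 0 in a whole group are left out, and -0.03 over all genes. The KO effect on LAMA4 (1.16, adjusted p = 0.527) was not called as different between the cell types.

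WT NPCs and WT HEK293T cells were compared in the same fit, where the cell type and the table of counts cannot be told apart. Here 18 of 33 genes were higher in NPCs and 3 lower, beside 25.2% and 15.5% of all genes (40.7% in either direction), and the median log2 difference was 1.89 with ITGA11 and ITGAM, at 0 in WT HEK293T libraries, at their bounds (0.13 over all genes). ITGB8 had 0 to 9 counts in WT HEK293T libraries and 386 and 504 in WT NPC libraries, a log2 difference of 7.30 (SE 0.69, adjusted p = 2.43e-06). LAMA2 differed by 5.30, ITGA3 by 2.82, ITGB5 by 2.74, LAMA1 by 2.46, LAMB2 by 2.41, ITGA6 by 2.27 and ITGB1 by 2.18, each higher in NPCs. ITGA11 was at least 31.2-fold higher in WT NPCs, against a floor of 3 counts over the HEK293T group. The 3 lower genes were LAMC3 (log2 difference -3.35), LAMA3 (-2.30) and ITGA8 (-2.12), and the call on ITGA8 was lost under voom (adjusted p = 0.113), with other scalings and when any 1 of S16, S17, S3 and S5 was left out. LAMC1, higher by 1.04 in NPCs, was just short of an FC of 2 without S15 (0.98) or S17 (0.97), and the call on ITGB3 was lost without S3. LAMC3 and ITGA8 were among the genes called higher in KO NPCs. LAMB1 did not differ past the threshold between the WT cells (0.29, SE 0.16, adjusted p = 0.13).

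Genes that work beside integrins and laminins were read from the same fits. Of 35 tested genes of the adhesome, the adaptors between integrins and actin, 11 were higher in KO NPCs and 0 lower, beside 8.45% and 8.36% of all genes tested, 34 had a log2 FC above 0, and the median was 0.77. The largest were TNS1 (2.94), CAV1 (2.71), FERMT1 (2.10), PARVB (2.06) and TGFB1I1 (1.91), which encode a tensin, caveolin, a kindlin, a parvin and the paxillin relative Hic-5. Of 23 tested genes of integrin ligands outside the laminins, 16 were higher and 3 lower, beside the same 8.45% and 8.36%. TGFB1 (4.45), POSTN (3.96), COL3A1 (3.59), ICAM1 (3.36) and CTGF (2.83) were the largest rises, and SPP1 (-3.94), VCAM1 (-2.05) and MFGE8 (-1.34) were the falls. FN1, the fibronectin bound by ITGA5, ranged from 399 to 471 CPM in WT and from 1399 to 2143 CPM in KO libraries (log2 FC 2.02). FN1 was not among the 5 largest and is named because ITGA5 binds it.

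Basement membrane partners of laminins moved less evenly. Of 20 tested, 1 was higher, the collagen IV chain gene COL4A1 (log2 FC 2.47), and 5 were lower. The lower ones were FREM2 (-4.02) and FREM1 (-3.96), which encode basement membrane proteins of the Fraser complex, the collagen IV chain genes COL4A6 (-3.67) and COL4A5 (-1.11), and FBLN1 (-1.22), a fibulin. The median of this list was -0.30. Among 15 other laminin receptors, CD151 (1.42), a tetraspanin that binds ITGA3, and SDC4 (1.30), a syndecan, were higher and BCAM (-1.36), a LAMA5 receptor, was lower, with a median of 0.09. In both lists the numbers higher, and among receptors the number lower, were not far from the 8.45% and 8.36% called over all genes. In HEK293T cells, edgeR called 0 genes of these 4 lists, with 3 of 33 adhesome genes, 2 of 21 other ligands, 0 of 21 basement membrane partners and 1 of 14 receptors at an unadjusted p below 0.05, beside 7.12% of all genes.

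**Figure D4:**
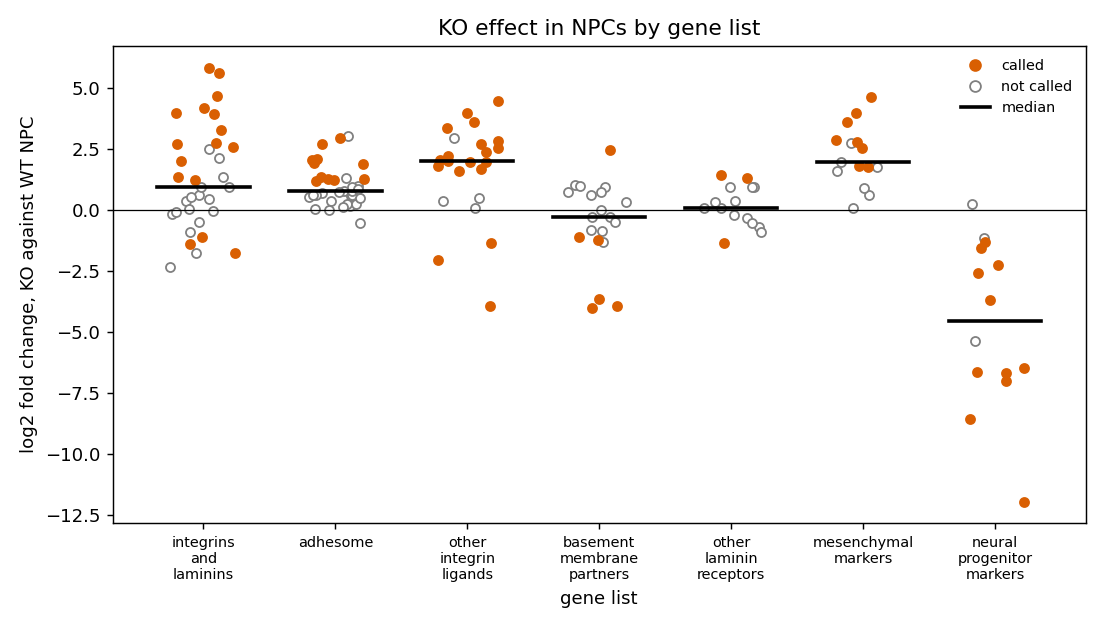
Log2 FC of KO against WT NPCs for the tested genes of each list, filled where called, with the median as a bar. Integrin and laminin genes (median 0.95) and adhesome genes (0.77) lie mostly above 0, mesenchymal markers above 0 and neural progenitor markers mostly below it, and the fitted values of progenitor genes at 0 counts in KO libraries depend on the prior count.

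Markers of several cell types differed between WT and KO NPC libraries together with these genes. The counts of called markers stand beside 8.45% of all genes called higher and 8.36% lower. Of 15 mesenchymal markers, 8 were higher and 0 lower, and their summed level was 1433 to 2338 CPM in WT and 5710 to 6636 CPM in KO libraries. COL1A1, COL1A2, COL3A1 and POSTN are on this list and on that of integrin ligands. For smooth muscle markers (3 of 8 higher) the sums were 914 to 1189 against 3817 to 3843 CPM, for neural crest markers (4 of 10 higher) 43.8 to 53.5 against 158 to 212 CPM, and for epithelial markers (3 of 9 higher) 412 to 665 against 1422 to 1604 CPM. Such sums rest mostly on the most abundant genes of a list, and the smooth muscle marker ACTA2 was not called (log2 FC -0.19). Neuron markers (5 of 10 lower, 1 higher) summed to 1298 to 1313 CPM in WT and 187 to 247 CPM in KO libraries. Neural progenitor markers summed to 3021 to 4159 against 3206 to 3266 CPM, a sum that includes NES. Endothelial markers (3 of 7 higher, 1 lower) overlapped, at 49.8 to 177 against 88.6 to 116 CPM, and leukocyte markers (1 of 5 higher) stayed low, at 3.84 to 4.02 against 9.37 to 11.5 CPM. Pluripotent markers (1 of 6 higher, 2 lower) summed to 208 to 243 against 81.0 to 94.6 CPM. The part of these markers in the integrin and laminin changes was not tested, and in bulk RNA fewer cells of a type and less RNA per cell cannot be told apart.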

How the data were processed

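RNA-seq libraries were made with a stranded mRNA kit. The authors aligned reads to hg19 with HISAT2, counted them per gene with featureCounts, and deposited 1 table of raw counts per cell type, without normalization; no versions are given in the sources used here. Symbols, coordinates and exon lengths came from GENCODE v44 lifted to hg19 (20366 of 20965 NPC and 22030 of 22750 HEK293T identifiers matched).

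Genes with fewer total counts than libraries were discarded. Counts were TMM-normalized and tested with edgeR 4.0.16 (R 4.3.3), each cell type alone, and all 10 libraries together for the interaction and the WT contrast. Alternatives included DESeq2 1.42.0 and voom (limma 3.58.1, the study's method). Standard errors (SE) follow from the fold change and its F statistic. The floor was 3 counts, which covers counting error only. On simulated counts with 200 genes changed 4-fold, the tests recovered 99.5% (NPC, 20347 genes), 100% (HEK293T, 18784), 91% (interaction, 19150) and 100% (WT contrast, 19210). Recovery of a change in the integrin and laminin genes themselves, at their own counts and library spread, was not tested in either cell type. No library looked like a repeat of another (chi-square per gene 10.3 to 82.4).

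Groups came from the sample titles. The genes and lists described were chosen with earlier results of these data known. Of the 33 genes, 1 is counted but not reported here by name. Library values were given for genes called in a KO comparison or the interaction and for the 2 leading chains of each class in a cell type (those of ITGA2, ITGA9, LAMA2 and LAMA4 were added after their values were seen), and at most 5 called genes a direction of the other lists were named, with a mean of at least 1 CPM.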

Additional observations from a re-analysis of the deposited data

Results flagged for a closer look

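The KO effect differed between NPCs and HEK293T cells, by the test of the difference itself (edgeR's interaction term, adjusted p below 0.05 and a ratio of FCs above 2), for 14 of 33 integrin and laminin genes. Over all 19255 genes tested this share was 12.2% (6.01% higher in NPCs and 6.22% lower). As log2 differences, NPC minus HEK293T, the 11 positive ones were 6.11 for LAMB3, 5.61 for ITGA4, 5.15 for ITGA8, 4.32 for LAMC3, 4.21 for ITGA1, 3.28 for LAMB1, 2.89 for ITGA3, 2.07 for ITGA5, 1.45 for LAMA5, 1.35 for LAMC1 and 1.31 for ITGAV. The 3 negative ones were -3.00 for ITGA2B, -2.12 for ITGA7 and -1.29 for ITGB5. The calls on these 3 and on LAMA5 were lost at an adjusted p below 0.01, and their dependence on single libraries is given above.

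LAMB3, ITGA4 and ITGA8 had fewer than 100 counts in every library but those of KO NPCs, and ITGA2B had fewer than 100 in all 10. LAMA5 was called in neither cell type alone, with log2 FC values of 0.95 in NPCs and -0.49 in HEK293T cells.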

How the results depend on the processing

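In NPCs, 12 to 14 genes were called higher under every alternative except without WT library S5, where 16 were (13 as reported, and the same 13 under DESeq2 and voom), and 2 to 5 lower. The number lower was 5 with no FC threshold, where LAMA1 and ITGA6 joined, and 2 to 3 with a library left out. In HEK293T cells the count was 0 throughout. For the interaction, 10 to 12 genes were higher. The number lower was 0 at an adjusted p below 0.01, and 0 to 3 with a library left out: 1 without WT HEK293T library S17, WT NPC library S3 or S5 or KO NPC library S2, and 0 without KO NPC library S1. The WT comparison gave 17 to 19 genes higher and 2 to 3 lower. The shares of all genes called under each alternative are not given beside these counts. A change in them therefore cannot be told from a change over all genes. Without a library the lone one left in its group is assumed to vary like the others, and without a WT NPC library that spread comes from the KO libraries alone, so the counts of 14 (without S3) and 16 (without S5) are not like the others, and for single genes only the log2 FC of these fits was given.

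Among the 8 uncalled genes rerun in NPCs (ITGB1, ITGA6, ITGA2, ITGA2B, LAMA1, LAMA4, LAMA5 and LAMB2), the sign turned for 2. ITGB1 gave -0.091 with library size alone, and -0.028 (without KO library S1) to 0.052 with a library left out. ITGA2 gave -0.094 (without WT library S3) to 1.07 with a library left out. Library size alone moved the median log2 FC of all genes from -0.02 to -0.13 in NPCs and from 0.01 to 0.10 in HEK293T cells.

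With the longest transcript as the length, shares in WT NPCs were 30.6% for ITGA5 (30.5% with all exons), 27.3% for ITGA6, 58.4% for ITGB1, 39.2% for ITGB5, 31.3% for LAMB1 and 68.5% for LAMB2. In KO NPCs they were 40.8% for ITGA5, 6.62% for ITGA6, 78.1% for ITGB1, 20.3% for ITGB5, 81.8% for LAMB1 and 16.8% for LAMB2. The change comes with the length itself, since all exons of LAMB1 span 18592 bases and its longest transcript 6737. No paired analysis was possible because the groups share no replicate numbers.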

Other observations

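The genes listed in only 1 table were low. In NPCs ITGB6 had 3 and 0 counts in WT and 9 and 3 in KO libraries, and LAMB4, whose gene lies 20334 bases from LAMB1, had 3 and 1 counts against 6 and 4. In HEK293T cells ITGAL and ITGB2 were at most at 0.136 and 0.336 CPM. LAMB4 was thus close to the floor in every NPC library while LAMB1 was at 83.5 CPM or more.

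The leukocyte chains ITGAM and ITGAX are also neighbours, 22241 bases apart with no other listed protein-coding gene between them. ITGAX reached 30 and 28 counts in KO NPC libraries and ITGAM 2 and 8.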
